A study of Mus musculus with 4 samples.

Results

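The genes of arginine metabolism described here are Nos2, Arg1, Arg2, Slc7a1, Slc7a2, Ass1, Asl, Odc1, Sat1 and Gch1. They were taken by symbol, 10 of the 23420 rows of the deposited table, and 9 of them passed the filter on low values. RNA-seq was made from CD11b and CD200R1 positive myeloid cells sorted from cutaneous squamous cell carcinomas grown at their site of origin in FVB/N mice, where CD11b is an integrin of myeloid cells and CD200R1 binds CD200 on other cells. The 2 WT libraries came from wild-type tumours, which carry CD200, and the 2 EpiKO libraries from K14Cre;CD200fl/fl tumours, in which Cre driven by the keratin 14 promoter removes CD200 from the epidermis. K14Cre is meant to act in epithelium and not in the sorted cells, which was not tested here. Neither the age of the mice nor whether the replicates were separate mice or pools is given in the sources used here. The comparison of EpiKO with WT asks what changes in the receptor-bearing cells when the tumour lacks CD200.

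L-arginine enters macrophages through cationic amino acid transporters and is then shared among competing enzymes. Inducible nitric oxide synthase turns it into nitric oxide and citrulline, with tetrahydrobiopterin as a cofactor, and citrulline can be rebuilt into arginine by argininosuccinate synthase and lyase. Arginase instead splits it into urea and ornithine, the starting point of polyamines and proline, and the balance of both routes is a textbook marker of macrophage activation states.

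Depth was 15884132 to 21244158 reads assigned to genes per library, and values below are normalised read counts. The macrophage markers were high in all libraries, their 11 genes summing to 580727 and 477806 (WT) against 636729 and 641281 (EpiKO). Basal keratinocyte transcripts were high in WT replicate 1 alone, where Krt14 was at 1907 against 28.6 in WT replicate 2 and 8.61 and 18.9 in EpiKO. The 11 keratinocyte and carcinoma markers summed to 5084 and 711 (WT) against 7168 and 5962 (EpiKO), since Krt8, Krt18 and Cdh1 were higher in both EpiKO libraries. Neutrophil markers summed to 5663 and 5372 (WT) against 5839 and 3763 (EpiKO), with 12 of 13 found. The collagenase gene Mmp8 made up 3757 of the EpiKO replicate 1 sum, and the other 11 found genes summed to 5496 and 5150 (WT) against 2082 and 2916 (EpiKO), lower in both EpiKO libraries. Of these sums, Mmp9 alone made up 4120 and 2325 (WT) against 1307 and 1311 (EpiKO). Csf3r, at 1154 and 1215 (WT) against 514 and 1323 (EpiKO), overlapped between the groups. Of the 12 found genes, 1 was higher and 3 lower in EpiKO without overlap, while 47.1% of all tested genes did not overlap. Among the 3 lower, Mpo did not pass the filter, at 1 and 8 reads (WT) against 0 and 1 (EpiKO). The granule gene Elane was at 0 reads in 3 of the 4 libraries. The sums of the other marker lists were at most 862, except for fibroblast markers at 18262 to 31479.

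Promoter sequences are shown for 3 genes in the order of the pathway: Ass1, which was listed at or near 0, and the opposed polyamine enzymes Odc1 and Sat1. They run from 250 bases before to 50 bases after the RefSeq start, 5′ to 3′ on the gene's own strand, build GRCm38.p6, and capitals mark matches on either strand to the searched motifs. RefSeq promoters were matched for 5 of the 10 genes. Ass1 is at chr2:31470020-31470319 on the plus strand, Odc1 at chr12:17544623-17544922 on the plus strand and Sat1 at chrX:155216400-155216699 on the minus strand.
Ass1: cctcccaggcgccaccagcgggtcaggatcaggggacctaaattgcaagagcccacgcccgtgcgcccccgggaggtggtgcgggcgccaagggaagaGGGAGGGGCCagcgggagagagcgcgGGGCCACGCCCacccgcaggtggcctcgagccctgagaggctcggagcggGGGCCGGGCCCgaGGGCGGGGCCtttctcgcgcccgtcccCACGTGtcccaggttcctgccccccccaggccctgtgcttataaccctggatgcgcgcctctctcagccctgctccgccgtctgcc
Odc1: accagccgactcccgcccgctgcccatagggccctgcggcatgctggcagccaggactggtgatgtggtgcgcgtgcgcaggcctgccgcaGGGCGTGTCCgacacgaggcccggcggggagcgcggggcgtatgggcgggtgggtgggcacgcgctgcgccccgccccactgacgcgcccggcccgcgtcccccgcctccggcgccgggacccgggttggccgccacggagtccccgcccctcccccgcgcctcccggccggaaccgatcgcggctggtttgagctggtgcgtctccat
Sat1: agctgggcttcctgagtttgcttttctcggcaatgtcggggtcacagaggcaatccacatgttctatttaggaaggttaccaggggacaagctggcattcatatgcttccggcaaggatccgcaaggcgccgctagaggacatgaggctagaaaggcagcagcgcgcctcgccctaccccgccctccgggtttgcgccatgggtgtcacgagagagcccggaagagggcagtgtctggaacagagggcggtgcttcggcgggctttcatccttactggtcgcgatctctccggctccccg
The motifs were NF-kB as GGG and CC with 5 bases of any kind between them, AP-1 as TGANTCA, STAT as TTCNNNGAA, STAT6 as TTC and GAA with 4 bases of any kind between them, C/EBP as TTGCNNAA, the hypoxia response core ACGTG, the TATA box TATAAA and the E-box CACGTG, which contains ACGTG. Ass1 held 1 E-box, first base 36 before the start, and several matches to the loose NF-kB motif, some of them overlapping. Odc1 held 1 NF-kB match beginning 159 before the start, and none of the searched motifs was found in the Sat1 window. Of all 32851 promoters of this length, 50.8% held the NF-kB letters, 7.15% the E-box, 19.6% the hypoxia core, 13.6% the TATA box, 10.8% C/EBP, 8.3% STAT, 7.81% AP-1 and 6.95% STAT6. These are matches of letters, not sites of binding.

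Nos2 was the member with the clearest change, and it rose from a low level. Its values were 56.8 and 24.4 (WT) against 702 and 487 (EpiKO), resting on 49 and 29 reads against 652 and 515. The groups did not overlap, and the lower EpiKO library was 8.57 times the higher WT library. The mean rose from 40.6 ± 22.9 to 594 ± 152 (SD, n = 2), a log2 fold change of 3.93 (95% interval 2.78 to 5.09, SE 0.448, limma adjusted p = 0.0471 after Benjamini-Hochberg correction over 12463 genes). Fold changes here and below are on the log2(value + 1) scale. Of the 9 tested members, 1, Nos2, was called at an adjusted p under 0.05, while 0.947% of all tested genes were called. By p it ranked 87 among all tested genes. In sorted bulk cells more Nos2 RNA per cell and more cells with Nos2 RNA cannot be told apart. The sum of the keratinocyte and carcinoma markers given above was also higher in both EpiKO libraries, through Krt8, Krt18 and Cdh1. Of these 11 markers, 3 were higher and 5 lower in EpiKO without overlap of the groups, while 47.1% of all tested genes did not overlap. Only 5 of the 11 passed the filter. Dsp, Epcam and Krt15, among the lower ones, did not pass and were high in WT replicate 1 alone. Epcam, for example, was at 156 and 7.57 (WT) against 6.46 and 7.56 (EpiKO). The part of these markers in the result was not tested. The value kept its direction with any 1 library left out, at log2 fold changes of 3.34 to 4.53. The call was lost in each of these fits, but they leave 1 library in a group and call few genes of any kind. It was also lost with all 4 libraries when limma was run without its trend option (adjusted p = 0.0952). On whole reads Nos2 was called by edgeR (adjusted p = 0.0465) and by DESeq2 (adjusted p = 5.66e-17), the only member either tool called, while edgeR called 0.842% and DESeq2 6.85% of all tested genes. Nos2 spans bases 78920787 to 78960254 of chromosome 11 (mm10, plus strand), and none of its 50-base transcript windows occurs in another annotated transcript.

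**Figure D1:**
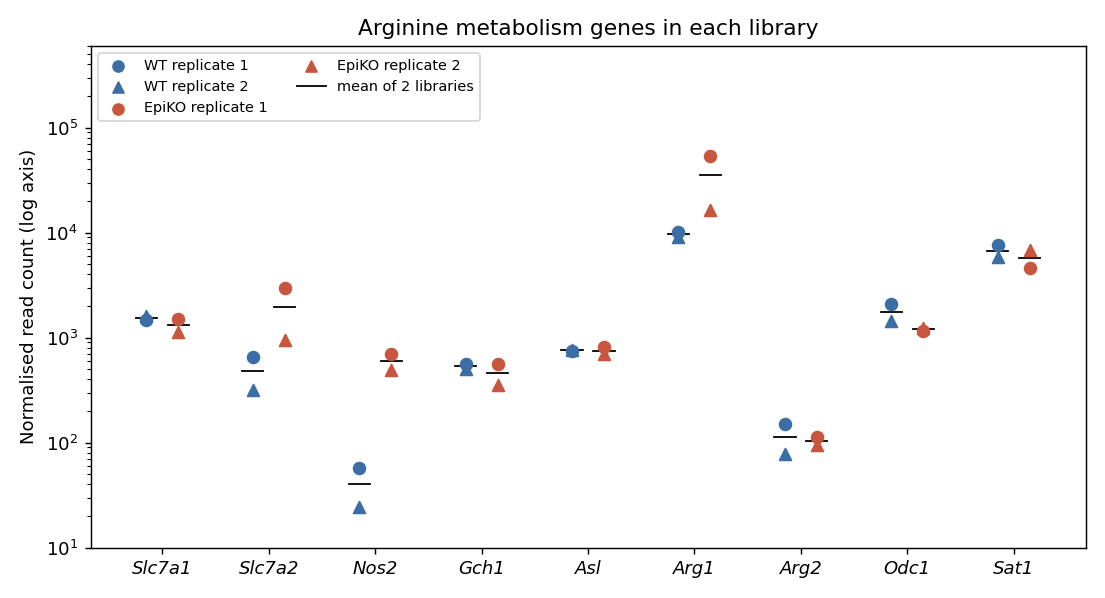
Normalised read counts on a log axis of the 9 tested genes in each of the 4 libraries, with black lines at the mean of each group of 2. Both EpiKO libraries lie above both WT libraries for Slc7a2, Nos2 and Arg1, and below them for Odc1.

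Neither arginine transporter among the members was called. Slc7a2, the inducible cationic amino acid transporter CAT2, had values of 650 and 317 (WT) against 2988 and 947 (EpiKO). Both EpiKO libraries were above both WT libraries, but EpiKO replicate 1 was 3.16 times EpiKO replicate 2. Its log2 fold change was 1.89 (95% interval 0.26 to 3.51, SE 0.630) and did not pass (adjusted p = 0.254 by limma). The value was 1.06 without EpiKO replicate 1 and 2.72 without EpiKO replicate 2. Slc7a1, the constitutive transporter CAT1, was at 1485 and 1616 (WT) against 1496 and 1136 (EpiKO), and these groups overlapped. Its log2 fold change of -0.25 had a 95% interval of -0.66 to 0.16 (adjusted p = 0.556 by limma), so a fall to 0.633 of the WT level is inside the interval. Per kilobase of exon, Slc7a2 stood at 55.3% and 24.8% of Slc7a1 in WT and at 252% and 105% in EpiKO, so that the inducible transporter was the lower of the pair in both WT libraries and, on this scale, the higher in both EpiKO libraries. Without division by length the Slc7a2 value was 43.8% and 19.6% of the Slc7a1 value in WT and 199.7% and 83.4% in EpiKO, so in EpiKO replicate 2 the order turns with the scale. Slc7a2 lies on chromosome 8 from 40862396 to 40922308 and shares 635 exonic bases with Gm26584 on the other strand, and Slc7a1 lies on chromosome 5 from 148327410 to 148399904.

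Of the other genes of arginine transport, 5 of 7 were tested and none was called by limma, with none at an unadjusted p under 0.05 and none called by DESeq2. Over all tested genes, the matching shares were 0.947%, 15.6% and 6.85%. Slc7a7, the exporter y+LAT1 that pairs with the heavy chain Slc3a2, had a log2 fold change of 0.20 (SE 0.131), Slc3a2 itself -0.35 (SE 0.175), and the mitochondrial carrier Slc25a29 0.96 (SE 0.658) at values of only 3.36 to 12.3. The median over these 5 was 0.040, and over all tested genes it was -0.0021.

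No gene of the cofactor route was called. Gch1, GTP cyclohydrolase and the first step of tetrahydrobiopterin synthesis, was at 564 and 504 (WT) against 559 and 354 (EpiKO). The groups overlapped, and the log2 fold change was -0.26 (95% interval -0.88 to 0.36, adjusted p = 0.690 by limma). A rise of Gch1 above 1.28-fold lies outside this interval, whereas the interval of Nos2 begins at 6.86-fold. Of 6 tested genes of tetrahydrobiopterin synthesis and recycling none was called by limma or DESeq2, with 1 higher and 1 lower at an unadjusted p under 0.05. Among all tested genes, limma called 0.947% and DESeq2 6.85%, and 15.6% had an unadjusted p under 0.05. Gchfr, the feedback regulator of Gch1, was at 18.5 and 13.4 (WT) against 33.4 and 47.3 (EpiKO), and Spr, sepiapterin reductase, at 879 and 873 against 656 and 647. Both missed the threshold, at adjusted p of 0.233 and 0.145 by limma. Qdpr, which recycles the oxidised cofactor, had a log2 fold change of -0.23 (SE 0.117). Gch1 lies on chromosome 14 from 47153895 to 47189413.

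The other nitric oxide synthases were close to the floor. Nos1, the neuronal enzyme, had 1 read in each library, and Nos3, the endothelial enzyme, was at 17.4 and 10.9 (WT) against 9.69 and 10.4 (EpiKO). The genes of the nitric oxide receptor, soluble guanylate cyclase, had 2 reads over all libraries for Gucy1a3 and 0 for Gucy1b3. Of the 8 tested genes for synthases, partners and receptor none was called by limma, 1 was higher and 2 lower at an unadjusted p under 0.05, and DESeq2 called Hmox1 higher. The matching shares of all tested genes were 0.947%, 15.6% and 6.85%. Hmox1, heme oxygenase, was at 4883 and 2806 (WT) against 6385 and 7905 (EpiKO), with a log2 difference of 0.94 and limma adjusted p of 0.229. For Nostrin, which binds the endothelial synthase, the log2 fold change was -0.60 (SE 0.168). For Calm2, a gene of the calmodulin that all synthases bind, it was -0.28 (SE 0.109).

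The return of citrulline to arginine had 1 member at the floor and 1 that was level. Asl, argininosuccinate lyase, was the steadiest of the 9, at 751 and 762 (WT) against 806 and 695 (EpiKO). Its log2 fold change was -0.015 with a 95% interval of -0.33 to 0.30 (adjusted p = 0.973 by limma), and the EpiKO libraries enclosed both WT libraries. Ass1, argininosuccinate synthase, which makes the substrate of Asl, had 1 read over the 4 libraries, in WT replicate 2, and was listed at 0 in the other 3. Oaz1, an antizyme gene that cells generally express, was also listed at 0 in all 4 libraries, and Amd1, the decarboxylase gene of polyamine synthesis, had 1 read. Whether Ass1 RNA was lacking or was lost in counting was not tested. Of the 50-base windows of Ass1, 38.6% also occur in Gm5424, itself listed at 0, and the share is 20.1% for Oaz1 with Oaz1-ps and 76.7% for Amd1 with Amd2, both partners also listed at 0. How reads with several alignments were treated is not given in the sources used here, and its part in these zeros was not tested. Ass1 lies on chromosome 2 from 31470207 to 31520672 and Asl on chromosome 5 from 130011258 to 130029247. Of the wider urea cycle list, Otc and Cps1, the liver enzymes, had no reads, Nags had 6, and Glul, glutamine synthetase, had a log2 fold change of -0.26, not called by limma or DESeq2 and not at an unadjusted p under 0.05.

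Arg1, cytosolic arginase and the most abundant member, was higher in both EpiKO libraries but with a wide spread between them. Its values were 10187 and 9175 (WT) against 54192 and 16393 (EpiKO), so that EpiKO replicate 1 was 3.31 times EpiKO replicate 2 while the WT libraries differed by 1.11 times. In EpiKO replicate 1 the gene took 0.289% of all reads. The log2 fold change was 1.62 (95% interval 0.17 to 3.08, SE 0.563) and did not pass, with an adjusted p of 0.271 by limma, 0.229 by edgeR and 0.162 by DESeq2. It was 0.76 without EpiKO replicate 1 and 2.49 without EpiKO replicate 2, when the adjusted p was 0.0566 by limma. The gap between the EpiKO libraries was 1.72 on the log2 scale, and 1.86% of all tested genes had a gap as large. For Slc7a2 this share was 2.09%, and for Nos2 18.2%. Arg1 lies on chromosome 10 from 24915221 to 24927484 on the minus strand and shares no 50-base window with another annotated transcript.

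**Figure D2:**
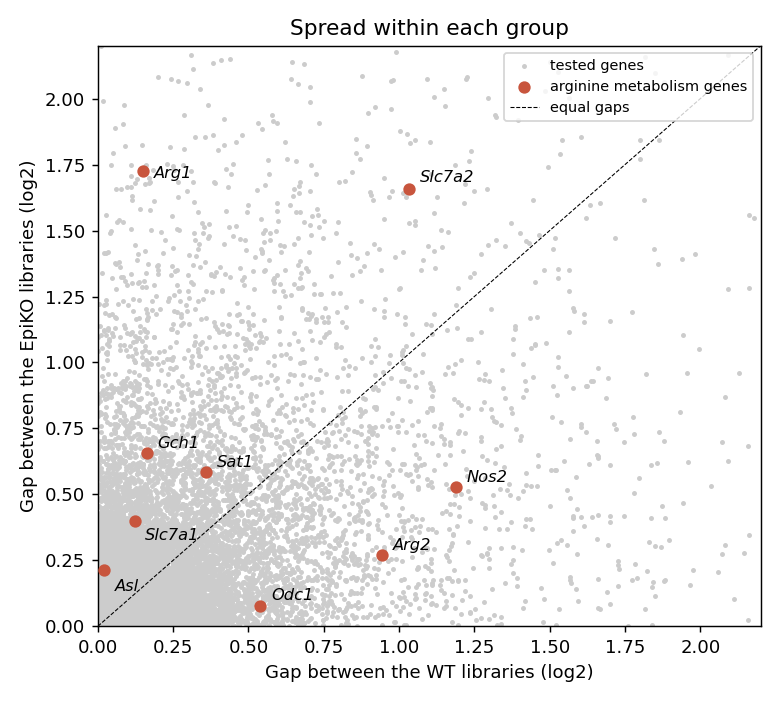
Gap between the 2 WT libraries (x) against the gap between the 2 EpiKO libraries (y), both as log2 of value + 1, for all tested genes in grey and the 9 arginine metabolism genes in red, with 192 genes beyond the axes. Arg1, with gaps of 0.15 and 1.72, and Slc7a2, with 1.03 and 1.66, stand high on the EpiKO axis, and Nos2, at 1.19 and 0.53, lies to the right.

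Arg2, the mitochondrial arginase, showed no such gap between the groups. It was at 150 and 77.3 (WT) against 114 and 94.5 (EpiKO), and the EpiKO libraries fell between the WT libraries. The log2 fold change was -0.050 with a 95% interval of -0.98 to 0.88 (adjusted p = 0.968 by limma), wide enough to hold a change of 1.84 times. Per kilobase of exon, Arg1 stood at 43.7 and 76.0 times Arg2 in WT and at 304 and 111 times Arg2 in EpiKO. Arg2 lies on chromosome 12 from 79130777 to 79156301, and 20.0% of its exonic bases overlap Vti1b on the other strand, so its low reads may hold some of that gene where strand was not used in counting.

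Nos2 relative to Arg1 was higher in both EpiKO libraries, although Arg1 was also higher there. The Nos2 value was 0.558% and 0.266% of the Arg1 value in WT and 1.30% and 2.97% in EpiKO. Divided by exon length these became 0.282% and 0.134% in WT and 0.654% and 1.499% in EpiKO. Arg1 RNA thus exceeded Nos2 RNA per kilobase by 66.7 times or more in every library. With 2 libraries a group the smallest p of an exact permutation test is 0.333, so these ratios are a description.

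Neither polyamine enzyme among the members was called. Odc1, ornithine decarboxylase, which makes putrescine from the ornithine that arginase releases, was at 2087 and 1436 (WT) against 1164 and 1229 (EpiKO). Both EpiKO libraries were below both WT libraries. The log2 fold change was -0.53 (95% interval -1.04 to -0.028, SE 0.197) and did not pass (adjusted p = 0.294 by limma). Without WT replicate 1, the library with high Krt14, it was -0.26, and without WT replicate 2 it was -0.80. Of the Odc1 windows of 50 bases, 24.3% occur in other annotated transcripts, Gm7993 first among them, so its level is uncertain. Sat1, the acetyltransferase that marks polyamines for export and breakdown, was at 7559 and 5893 (WT) against 4574 and 6857 (EpiKO), and the groups overlapped (log2 fold change -0.25, 95% interval -0.87 to 0.37, adjusted p = 0.703 by limma). Per kilobase, Odc1 stood at 22.5% and 19.8% of Sat1 in WT and at 20.7% and 14.6% in EpiKO. Odc1 lies on chromosome 12 from 17544794 to 17551505 and Sat1 on chromosome X from 155213132 to 155216449.

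Among the other polyamine genes, Mtap rose. It encodes methylthioadenosine phosphorylase, which salvages the by-product that spermidine and spermine synthesis leave behind. Its values were 832 and 871 (WT) against 2133 and 2559 (EpiKO), with no overlap. The log2 fold change was 1.46 (SE 0.129, adjusted p = 0.0334 by limma), and the adjusted p was 0.0356 by edgeR and 7.22e-13 by DESeq2. With any 1 library left out the log2 fold change was 1.32 to 1.59 and the adjusted p 0.0822 to 0.184 by limma. Mtap lies on chromosome 4 from 89137122 to 89181081. It was the 1 call among 13 tested genes of this list, with 2 higher and 4 lower at an unadjusted p under 0.05, where 0.947% and 15.6% of all tested genes passed these thresholds. Smox, spermine oxidase, was at 1984 and 1493 (WT) against 2738 and 2695 (EpiKO), and Sms, spermine synthase, at 415 and 470 against 278 and 241. These enzymes of opposed direction, spermine breakdown and spermine synthesis, differed by 0.66 (SE 0.162) and -0.77 (SE 0.152) on the log2 scale and missed the threshold by limma at adjusted p of 0.149 and 0.101, while DESeq2 called both at 0.0291 and 0.0202.

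**Figure D3:**
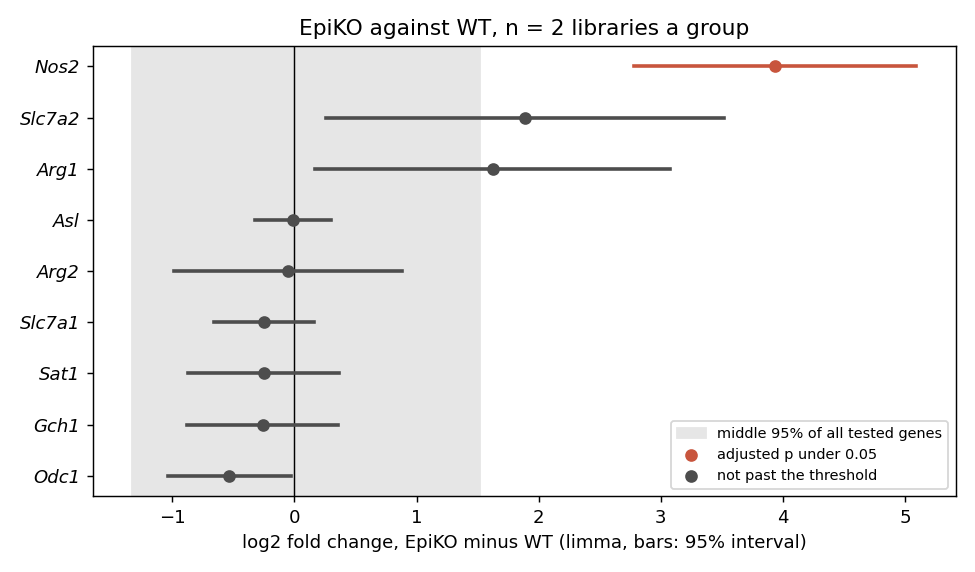
Log2 fold change of EpiKO against WT with its 95% interval for the 9 tested genes, with the range that holds 95% of all tested genes in grey, from -1.33 to 1.52. Nos2 in red is called at 3.93, the Slc7a2 and Arg1 estimates of 1.89 and 1.62 lie just outside the grey range with intervals that reach into it, and the other 6 are between -0.53 and -0.015.

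Over the 9 tested members, 3 log2 fold changes were positive and 6 negative, with a median of -0.050. The groups did not overlap for 4 of the 9, against 47.1% of all tested genes, so non-overlap as such did not set the members apart. An unadjusted p under 0.05 was found for 4 of the 9, against 15.6% of all tested genes. The order of levels per kilobase of exon differed between the groups. In WT, Arg1 came first at 4572 and 4118, then Sat1 at 2725 and 2124 and Odc1 at 613 and 422. Below them Asl at 155 and 158 stood over Slc7a1 at 129 and 140, while Gch1, Arg2 and Slc7a2 followed with ranges that overlapped between neighbours, and Nos2 was lowest at 12.9 and 5.53. In EpiKO, Arg1 at 24323 and 7358, Sat1 at 1649 and 2472 and Odc1 at 342 and 361 again led. There Nos2 at 159 and 110 overlapped with Asl at 167 and 144, with Slc7a1 at 130 and 98.5 and with Slc7a2 at 327 and 104, and lay above Gch1 at 89.4 and 56.7 and Arg2 at 79.9 and 66.2.

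Ornithine can also be turned into glutamate and proline, the residue that prolyl hydroxylases modify in collagen. None of 9 tested genes of this list was called by limma, 2 were higher and 1 lower at an unadjusted p under 0.05, and DESeq2 called P4ha2. Over all tested genes, the matching shares were 0.947%, 15.6% and 6.85%. P4ha2, a collagen prolyl 4-hydroxylase subunit, was at 97.4 and 76.5 (WT) against 247 and 249 (EpiKO), a log2 fold change of 1.51 (SE 0.206) at an adjusted p of 0.0540 by limma and 6.28e-05 by DESeq2. Its relative P4ha1 differed by 0.40 (SE 0.150) on the log2 scale, and Prodh, proline dehydrogenase, was at 144 and 186 (WT) against 114 and 95.5 (EpiKO), with a log2 difference of -0.64 and limma adjusted p of 0.277. Oat, the aminotransferase at the head of this route, had a log2 fold change of -0.20 (SE 0.117).

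Among enzymes that use arginine in other ways, Padi2 fell. It encodes a peptidylarginine deiminase, which converts arginine residues of proteins into citrulline. Its values were 855 and 783 (WT) against 407 and 442 (EpiKO), and its log2 fold change was -0.95 (SE 0.120, limma adjusted p = 0.0493). The call is at the margin, since the adjusted p was 0.0517 by edgeR, while it was 8.41e-05 by DESeq2. With any 1 library left out the log2 fold change was -1.01 to -0.88, and the limma call was lost. Padi2 lies on chromosome 4 from 140906344 to 140952586 and shares 149 exonic bases with the antisense gene Gm13031, which had at most 1 read in a library. The other 8 tested genes of this list were not called, while limma called 0.947% of all tested genes. Ddah2, which clears methylated arginines that inhibit nitric oxide synthases, differed by 0.24 (SE 0.130) on the log2 scale. Prmt1, which puts methyl groups on arginine residues, differed by -0.26 (SE 0.101).

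**Figure D4:**
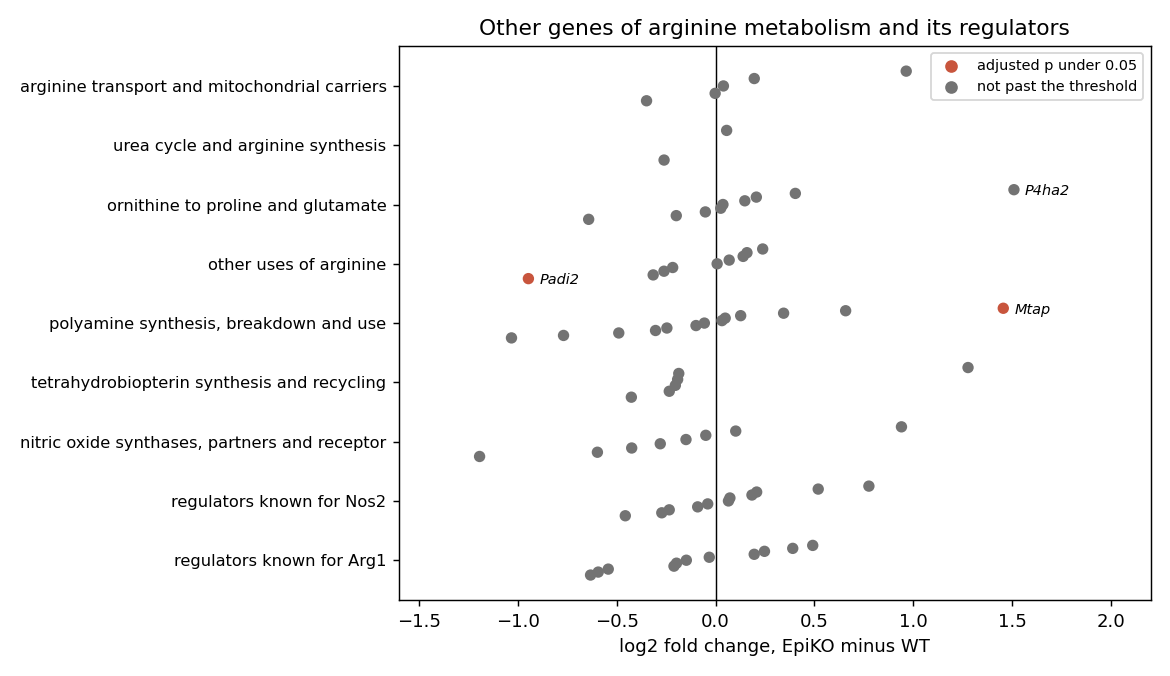
Log2 fold change of EpiKO against WT for the tested genes of 9 lists around arginine metabolism, 1 point a gene, in red where called by limma. Mtap at 1.46 and Padi2 at -0.95 are the 2 genes called by limma, and P4ha2 at 1.51, called by DESeq2, misses the limma threshold.

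No regulator known for Nos2 or Arg1 was called by limma, while DESeq2 called 3 of them. Of 11 tested genes known for Nos2, 6 had positive and 5 negative log2 fold changes with a median of 0.065, and 1 higher and 1 lower had an unadjusted p under 0.05. Tlr4, the endotoxin receptor, was at 1360 and 1466 (WT) against 3136 and 1864 (EpiKO), which DESeq2 called (adjusted p = 0.0466) and limma did not (adjusted p = 0.257). Rela, an NF-kB subunit, was at 2301 and 2186 against 1523 and 1753 (adjusted p = 0.165 by limma). The interferon receptor gene Ifngr1 had a log2 fold change of -0.23 (SE 0.120). Of 11 tested genes known for Arg1, 4 had positive and 7 negative log2 fold changes with a median of -0.15, again with 1 in each direction at an unadjusted p under 0.05. Il4ra, the interleukin 4 receptor chain, was at 11329 and 11424 (WT) against 14936 and 17128 (EpiKO), and Klf4, a transcription factor, at 21370 and 16835 against 13682 and 12391. Neither was called by limma, at adjusted p of 0.167 and 0.209, while DESeq2 called them at 0.0219 and 0.0494. Il13ra1, which pairs with Il4ra, had a log2 fold change of 0.39 (SE 0.179). Over all 9 lists, 1 of 74 tested genes was called higher and 1 lower by limma, with 8 higher and 12 lower at an unadjusted p under 0.05, and DESeq2 called 6 higher and 3 lower. Over all tested genes these shares were 0.947% for limma, 15.6% at an unadjusted p under 0.05 and 6.85% for DESeq2.

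The genes nearest to Nos2 in pattern, by the root mean square distance of centred log2 values over the 4 libraries among 10740 genes, were Tinagl1 at 0.147, Slco2a1 at 0.152, Rundc3a at 0.239 and Spry4 at 0.293. Tinagl1 had values of 9.27 and 3.36 (WT) against 107 and 98.3 (EpiKO), and Spry4, an inhibitor of receptor tyrosine kinase signalling, 17.4 and 6.72 against 133 and 140. Nearest to Arg1 were Akap5 at 0.0604, Thbs1 at 0.104, Vcan at 0.117 and Fam20c at 0.132. Thbs1, the matrix protein thrombospondin 1, was at 3789 and 3862 (WT) against 21946 and 7448 (EpiKO), and Vcan, the proteoglycan versican, at 1261 and 1300 against 6202 and 2194. Since all these genes were chosen for their likeness over the same 4 libraries, the higher EpiKO values of those near Nos2 follow from the choice. The same holds for the higher value in EpiKO replicate 1 of those near Arg1. Near Nos2, Slco2a1 and Rundc3a were called by limma at adjusted p of 0.0336 and 0.0436, while Tinagl1 and Spry4 missed the threshold at 0.0517 and 0.0549. None of those near Arg1 was called, with adjusted p of 0.205 to 0.296 by limma. The carcinoma marker Cdh1 also had its highest value in EpiKO replicate 1, at 4437 against 685 in EpiKO replicate 2 and 547 and 361 in WT, as did the neutrophil collagenase Mmp8, at 3757 against 847 and 167 and 222. Other markers of these lists ran the other way between the EpiKO libraries, with Krt8 at 1999 and 4164, Krt18 at 698 and 1074, and the neutrophil gene Csf3r at 514 and 1323 in EpiKO replicates 1 and 2. The remaining keratinocyte and carcinoma markers were low in EpiKO replicate 1. Krt14, Krt5, Epcam and Sfn were at 8.61, 7.54, 6.46 and 6.46 there, and Krt6a, Dsp, Trp63 and Krt15 at 0 to 2.15. The part of all these markers in the Arg1 pattern was not tested.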

How the data were processed

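The table the authors deposited holds a normalised signal: counts scaled by a single size factor in each library. Whole reads were recovered from it, because 100% of its values were multiples of the value of 1 read (0.841 to 1.16) within a tolerance of 1e-06 reads. The submitters' processing notes name featureCounts 1.5.0-p3, STAR 2.5.2b, DESeq2 and bcl2fastq 2.17, and the build mm10. Annotation, strandedness and multi-mapping rules: not given in the sources used here. Of 23420 rows, 7185 had no read.

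The 12463 genes that reached 10 in 2 or more libraries were tested on log2(value + 1) with limma 3.58.1 in R 4.3.3 (trend, robust, no covariate), two-sided, with Benjamini-Hochberg adjustment over all tested genes and a threshold of 0.05. Replicates may be technical, so p-values speak only for the spread among these 4 libraries. Whole reads were also tested with edgeR 4.0.16 and DESeq2 1.42.0. Further alternatives were leaving out each library, no trend, quantile normalization, equal library totals, a filter at 50 or none, and pseudocounts of 0.5 and 5. The script was tested on simulated data. Exon lengths and coordinates are from GENCODE M21 on mm10. Genes named are the 10 members, from each of the 9 lists every called gene and otherwise, or in addition, the 3 of smallest p, the 4 nearest in pattern to Nos2 and to Arg1, and up to 3 markers a list. Others, such as Nos1, Nos3, Krt18, Elane, Oat and the genes at 0, were chosen after their values were seen. One gene that this rule names is not reported here. The members, lists and motifs were chosen with earlier results of these data known.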

Additional observations from a re-analysis of the deposited data

How the results depend on the processing

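The log2 fold change of Nos2 was positive under all 14 alternatives, from 3.34 to 4.53, and its call was lost under 5 of them: no trend (adjusted p = 0.0952 by limma) and each of the 4 fits that left out a library. Member genes called higher thus numbered 0 with no trend and 0 in each fit that left out 1 library. Arg1, Slc7a2, Slc7a1 and Odc1 kept their direction and stayed uncalled under all 14. With 1 library left out, 4 log2 fold changes turned sign: Arg2 ranged from -0.52 to 0.42, at 0.42 without WT replicate 1 and 0.084 without EpiKO replicate 2, Asl from -0.12 to 0.092, Gch1 from -0.59 to 0.066 and Sat1 from -0.55 to 0.039. Over all genes, 52 were called higher and 66 lower, against 13 and 18 with no trend, 465 and 389 by DESeq2, and 0 to 2 and 0 to 4 with 1 library left out. Of the 9 lists, genes called higher numbered 2 with no filter, 0 with no trend, 6 by DESeq2 and 0 with any 1 library left out. Those called lower numbered 3 by DESeq2 and 0 with a pseudocount of 0.5, equal library totals, quantile normalization, no trend, both edgeR fits or any 1 library left out. The cause of these differences was not tested, beyond the smaller number of samples. Another scaling moved the median of all genes by 0.03 at most, to -0.030 with equal library totals. No paired analysis was possible because the labels give no replicate numbers shared between the groups. In WT, Nos2 rests on 29 and 49 reads, which limits its precision, and 3 reads stand for a value of 2.52 to 3.48.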

Other observations

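The Arg1 value was 15.7 and 29.0 times the Slc7a2 value in WT and 18.1 and 17.3 times in EpiKO, so that the 2 EpiKO libraries, in which each gene differed by over 3 times, had nearly the same ratio. Slc7a2 was the gene of rank 34 in nearness to Arg1 among 10740, at a distance of 0.340.

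Mast cell and basophil markers summed to 440 and 18.5 (WT) against 196 and 18.9 (EpiKO), high in replicate 1 of each group and near the floor in the other libraries. Arg1 and Slc7a2 were also higher in replicate 1 than in replicate 2 of each group, by 1.11 and 2.05 times in WT and 3.31 and 3.16 times in EpiKO. The replicate numbers pair nothing, and the part of mast cell RNA in these values was not tested.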
